A study of Mus musculus with 24 samples.

Results

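Wild-type (WT) primary dermal fibroblasts were compared after 24 h of TWEAK (100 ng/ml) and without treatment, with 4 libraries at each time. These 8 libraries, chosen by their labels for genotype, treatment and time, are 8 of the 24 in the series. The other libraries are of NIK knockout cells (KO), of cells labelled NIK X mut, whose mutation the labels do not define, and of WT cells at 6 h. The WT donors were littermates of the mutant mice, and all cells were used at the 5th passage, so the results describe cultured skin cells of no stated sex or age. Bulk MARS-seq reads the 3′ end of a transcript and counts molecules by their identifiers (UMIs). Levels are CPM, UMI counts scaled to a common library total and corrected by the trimmed mean of M values (TMM). Changes are log2 differences with their standard errors from edgeR's quasi-likelihood test. Adjusted p-values are Benjamini-Hochberg values over all 11337 genes tested, with 0.05 as the threshold.

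TWEAK is a cytokine of the TNF family that binds the receptor Fn14 on fibroblasts, epithelium and endothelium. The receptor draws TRAF2, TRAF3 and the cIAP proteins to the membrane, which spares the kinase NIK from degradation. NIK then drives the processing of NF-kB2 p100 to p52, the slow, noncanonical route that sends RelB-p52 dimers to the nucleus. TWEAK also starts the faster canonical route through IKK2 and RelA, and in skin it is known for inducing chemokines, adhesion molecules and matrix-degrading enzymes.

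The 8 libraries held 1575261 to 3408545 UMIs and detected 12975 to 13323 genes. A count of 0 allows up to 0.88 to 1.90 CPM in a single library (3 counts, counting error only). The libraries of replicates 1 and 2 stood apart from those of replicates 3 and 4 at both times. Replicates 1 and 2 also differed from each other, with a chi-square per degree of freedom of 11.4 untreated and 11.2 at 24 h. Between replicates 3 and 4 it was 4.28 and 3.8. On the principal components, which held 40.2% and 31.9% of the variance, time and this division spread the libraries along both axes. Same-numbered libraries varied together and are called a culture here, a pairing taken from the replicate numbers. Within replicates 1 and 2 the correlation of same-numbered libraries was 0.534. Within replicates 3 and 4 it was only 0.107, so the pairing of these 2 is weakly shown. Separate mice are not named in the labels. A p-value here rests on a spread between libraries that is estimated over all 24 and may be technical. The chi-square per degree of freedom was 3.02 to 6.83 within the KO and NIK X mut pairs that enter this estimate. Between WT libraries of the same time it reached 20.3. No untreated library of 24 h was analysed here, so TWEAK and a day more in culture cannot be told apart.

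The label of dermal fibroblasts was checked against defining markers. Col1a2, encoding a chain of type I collagen, was at 7636 CPM untreated and 5753 CPM at 24 h, the intermediate filament gene Vim was at 7305 and 7149.9 CPM, and Pdgfra was at 47.9 and 74.3 CPM. Of the 9 markers Lum was close to the limit of detection, at 2.98 and 1.41 CPM. Summed over their lists, keratinocyte markers came to 4.40 to 14.7 CPM in a library, adipocyte markers to 1.63 to 3.67 CPM, macrophage and leukocyte markers to 16.1 to 30.8 CPM, and melanocyte and Schwann cell markers to 20.7 to 33.7 CPM. Endothelial markers came to 16.5 to 23.8 CPM untreated and 20.3 to 52.0 CPM at 24 h, where Cdh5, the cadherin of endothelial junctions, rose by 1.56 ± 0.41 on the log2 scale (adjusted p = 0.0225). The call of Cdh5 was lost without the untreated library of culture 3 or 4, the 24 h library of culture 2 or all libraries of culture 2 or 3 (adjusted p 0.0559 to 0.136), and the part of endothelial cells in other results was not tested. Muscle and pericyte markers came to 179 to 293 CPM untreated and 137 to 188 CPM at 24 h, with Mcam (-1.18 ± 0.28, adjusted p = 0.0123) as the 1 member past the test, a call lost without all libraries of culture 4 (adjusted p = 0.0559). In bulk RNA, fewer cells of a type and less RNA per cell cannot be told apart.

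At 24 h, 417 genes were higher and 362 were lower than in untreated cells, which is 3.68% and 3.19% of the genes tested. The median log2 change was 1.12 among those that rose and -1 among those that fell, while the median of all genes was -0.0017. Large rises outnumbered large falls, with 100 genes past the test rising by at least 2 on the log2 scale and 41 falling by as much. The 4 treated libraries all lay above the 4 untreated ones for 643 genes (5.67%) and all below for 605 (5.34%), and of the genes past the test this was so for 350 and 287. Within cultures, 415 of the 417 rises and 358 of the 362 falls had the same direction in 4 of 4. Calling the genes on these same libraries favours such agreement. An unadjusted p under 0.05 was reached by 2250 genes. By the authors' deposited table, 815 genes had an adjusted p under 0.05, 426 of them higher and 389 lower, and 724 of the 779 genes past the test here were among these with the same sign.

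**Figure D1:**
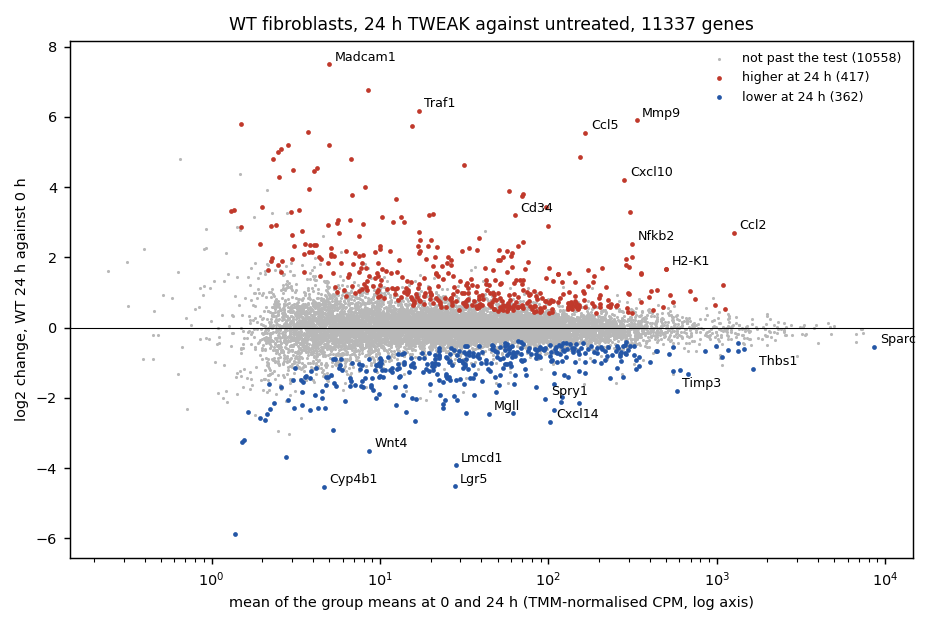
Each point is a gene, with the mean of its 2 group means in CPM on a log axis and its log2 change at 24 h against untreated cells on the vertical axis (n = 4 and 4 WT libraries). Red points mark the 417 genes higher and blue points the 362 genes lower at an adjusted p under 0.05. The largest rises lie further from 0 than the largest falls.

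Counts rested on how the cultures were treated in the fit. With the culture as a block, 909 genes rose (8.02%) and 861 fell (7.59%), and all 779 genes were among them with their direction. In a fit of the 8 libraries alone without the block, 228 genes rose and 183 fell. Of the 779 genes, 391 stayed past the test in that fit and 58 were not in it. Within replicates 1 and 2 alone 490 genes rose and 383 fell, and within replicates 3 and 4 alone 290 rose and 227 fell. Of the 779 genes, 549 stayed past the test with their direction in the first pair of cultures and 375 in the second. All 779 kept their sign in the first pair and 778 in the second. The genes were called on these same libraries, which favours that agreement. Without replicate 2 at every time 262 rose and 230 fell, without replicate 3 there were 271 and 215, and without replicate 4 there were 292 and 235. Without the untreated library of replicate 2 alone, 286 rose and 232 fell. Where the block changes a count below by more than 1.5 times, its value follows. Ranges called leave-outs below are the counts over the 12 settings that left out a library or a culture. A count of 1 or 2 members is, in most lists, close to the shares of all genes given above.

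Several components of the noncanonical pathway itself rose. Of 13 components tested 7 rose and none fell, with a median log2 change of 0.97 against -0.0017 for all genes. Nfkb2 (chr19:46304320-46312385, plus strand of GRCm38), which encodes p100, was at 123, 94.3, 95.1 and 95.2 CPM in untreated cultures 1 to 4 and at 622, 571, 511 and 421 CPM after 24 h. Every treated library lay above every untreated one, with 4 treated values at more than 3 times the highest untreated value. The change was 2.38 ± 0.14 (SE; adjusted p = 4.31e-10, n = 4 and 4). Relb (chr7:19606217-19629438, minus strand), the partner of p52, went from 20.6, 21.9, 21.2 and 22.5 CPM to 80.4, 99.6, 80.5 and 83.2 CPM, a change of 2 ± 0.15 (adjusted p = 6.15e-09). The untreated values of Relb differed by less than 2 CPM between cultures.

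Genes for the proteins that hold NIK in check rose as well. Birc3, encoding cIAP2, went from 14.1, 11.9, 10.6 and 9.65 CPM to 66.9, 61.8, 53.1 and 43.2 CPM (2.27 ± 0.17, adjusted p = 8.31e-09), with no overlap. Its paralog Birc2 (cIAP1) rose by 1.55 ± 0.25 and Traf2 by 1.21 ± 0.17. Traf3, the adaptor that brings NIK to these ligases, rose by 1.36 ± 0.17 from a mean of 36.3 to 92.4 CPM. Map3k14, the gene of NIK (chr11:103219762-103267472, minus strand), was at 15.2, 25.7, 22.5 and 21.9 CPM untreated and 23.3, 50.4, 53.7 and 40.0 CPM at 24 h. The treated library of culture 1 lay within the untreated range, so the groups overlap, and the change of 0.97 ± 0.23 (adjusted p = 0.0121) was lost without the 24 h library of culture 3 or all libraries of culture 3 (adjusted p 0.0555 to 0.0951). The receptor did not pass: Tnfrsf12a, encoding Fn14 (chr17:23675445-23677468, minus strand), had means of 382 ± 180.0 and 499.8 ± 197 CPM (SD, n = 4) and a change of 0.39 ± 0.34 (adjusted p = 0.585). It was higher at 24 h in 4 of 4 cultures, but the cultures differed from each other by more than that. In the fit of the WT libraries at 0 and 24 h alone with the block, it passed (0.43, adjusted p = 0.0224). Chuk, the gene of IKK1, gave 0.16 ± 0.2 and Tnfsf12, the gene of TWEAK, 0.00 ± 0.2.

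Canonical NF-kB genes and their inhibitors formed a second group, of which 9 of 20 rose and none fell (median 0.52). Inhibitors of the pathway were among the rises. Nfkbie, encoding IkB-epsilon, was at 6.85, 5.47, 10.2 and 7.07 CPM untreated and 102, 152, 85.7 and 99.1 CPM at 24 h (3.9 ± 0.24, adjusted p = 4.31e-10). Nfkbia, encoding IkB-alpha, went from 76.1, 44.7, 50.1 and 57.9 to 784, 651, 412 and 386 CPM (3.29 ± 0.24, adjusted p = 5.8e-09). For both genes the lowest treated library was more than 5 times the highest untreated one. Tnfaip3 (A20), which removes ubiquitin chains from the signalling complex, rose by 2.32 ± 0.3 and its partner Tnip1 by 1.57 ± 0.14. Bcl3, a nuclear cofactor of p50 and p52 dimers, rose by 2.12 ± 0.29. The DNA-binding subunit Rela rose by 0.61 ± 0.15, while Nfkb1 reached 0.45 ± 0.14 without passing (adjusted p = 0.0551; 0.025 with the block). The call of Rela was lost without the 24 h library of culture 1 or all libraries of culture 2 (adjusted p 0.0532 to 0.0566). Ikbkb, encoding IKK2, gave 0.22 ± 0.16 (adjusted p = 0.479).

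Chemokines had the highest median of all lists, 1.70, with 10 of 18 tested higher and 1 lower. Ccl5, which draws T cells, was at 5.33, 6.11, 8.92 and 7.72 CPM untreated and at 119, 373, 455 and 355 CPM after 24 h. Culture 1 was far below the other treated cultures, yet no treated value came near an untreated one (5.55 ± 0.42, adjusted p = 8.88e-09). Cxcl10, a ligand of CXCR3, went from 32, 33.1, 31 and 18 to 449, 379, 818 and 507 CPM (4.21 ± 0.36, adjusted p = 5.49e-08). The monocyte attractant Ccl2 had the largest rise in CPM, from 214, 276, 457 and 407 to 2535, 2021, 2161 and 2054 CPM, and in proportion its treated values lay closer together than its untreated ones (2.7 ± 0.2). Its neighbour Ccl7 rose by 1.67 ± 0.23 and the membrane-bound chemokine Cxcl16 by 3.75 ± 0.19 (adjusted p = 4.9e-11), the smallest adjusted p of the named genes. The 1 chemokine that fell was Cxcl14, which resting skin makes constitutively. It was at 56, 119, 420.3 and 119 CPM untreated and 8.86, 24.9, 52 and 24.1 CPM at 24 h, so the highest treated library, of culture 3, was just under the lowest untreated one, of culture 1 (-2.68 ± 0.5, adjusted p = 0.00159).

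Among cytokines 4 of 13 rose and none fell (median 0.68). Csf1, the growth factor of macrophages, rose from 744, 598, 573 and 707 to 2005, 1736, 1107 and 1272 CPM (1.22 ± 0.18, adjusted p = 0.000143). Il34, the other ligand of the same receptor, rose by 1.81 ± 0.35 and Lif by 1.94 ± 0.39. Csf2, encoding GM-CSF, held 0 UMIs in the untreated libraries and 34 at 24 h. This was 9.68-fold higher with the untreated group set to its floor of 3 UMIs, leaving out the counting error of the treated group. Of 12 adhesion molecules 4 rose and 1 fell. Icam1, a ligand of leukocyte integrins, went from 16, 29.3, 23.4 and 25.1 to 103, 246, 188 and 162 CPM (2.9 ± 0.25, adjusted p = 5.49e-08) and Vcam1 from 32, 64.7, 48.4 and 44.4 to 159, 185, 154 and 119.9 CPM (1.7 ± 0.2, adjusted p = 4.83e-06), both with no overlap. The fall was that of Mcam.

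The 15 largest rises included several genes that were close to silent in untreated cells. Madcam1, the addressin through which lymphocytes enter gut tissue, had 0 UMIs in the 4 untreated libraries and 3.28, 12.3, 9.24 and 15.3 CPM in the treated ones. This was 31.3-fold higher with the same floor, again leaving out the counting error of the treated group. Spib, an ETS transcription factor known from lymphoid cells, held 1 UMI untreated and 212 at 24 h, a ratio of 181 (95% exact interval 32.1 to 7184). Traf1, an adaptor of TNF receptors, went from 0, 0.322, 0.849 and 0.643 CPM to 41, 44.9, 22.5 and 26.3 CPM (6.17 ± 0.43, adjusted p = 4.66e-09). For these genes every treated library held the transcript, as the choice of the largest rises required. Every untreated value lay under the level that a count of 0 allows in its library.

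Ratios of raw UMIs were 48.7 (95% exact interval 13.2 to 407) for the peptide transporter gene Slc15a3 and 54.6 (95% exact interval 9.46 to 2192) for Cryaa, a crystallin of the lens. The ratio was 29 (95% exact interval 7.73 to 245) for Itga2, a collagen-binding integrin chain. The intervals cover counting error only. Mmp10, at 24.9, 1.23, 2.31 and 2.74 CPM in treated cultures, was far higher in culture 1 than in the others, and its call was lost without the untreated library of culture 2, the 24 h library of culture 1 or all libraries of culture 1 (adjusted p 0.0602 to 0.19). Bdkrb1, the inducible bradykinin receptor, rose by 4.81 ± 0.75.

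Other large rises started from measurable levels. Mmp9, the gelatinase of basement membranes, was at 2.28, 8.69, 17.8 and 17.4 CPM untreated and 233, 542, 943 and 922 CPM at 24 h (5.9 ± 0.69, adjusted p = 5.34e-06). Its level differed several-fold between cultures at both times, with culture 1 lowest in each. Serpina3g, a serine protease inhibitor, went from 2.28, 5.79, 20.8 and 14.1 to 178, 396, 342 and 269 CPM (4.85 ± 0.4); it belongs to a cluster of near-identical genes whose reads may be shared. Upp1, which splits uridine, went from 4.19, 1.61, 0.849 and 3.22 to 97.7, 51, 39.8 and 53.1 CPM (4.62 ± 0.39, adjusted p = 3.96e-08). Angptl4, an inhibitor of lipoprotein lipase, rose from a mean of 10.1 to 132 CPM (3.8 ± 0.53). C3, the central complement protein, rose from 4.29 to 36.8 CPM (3.24 ± 0.51).

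**Figure D2:**
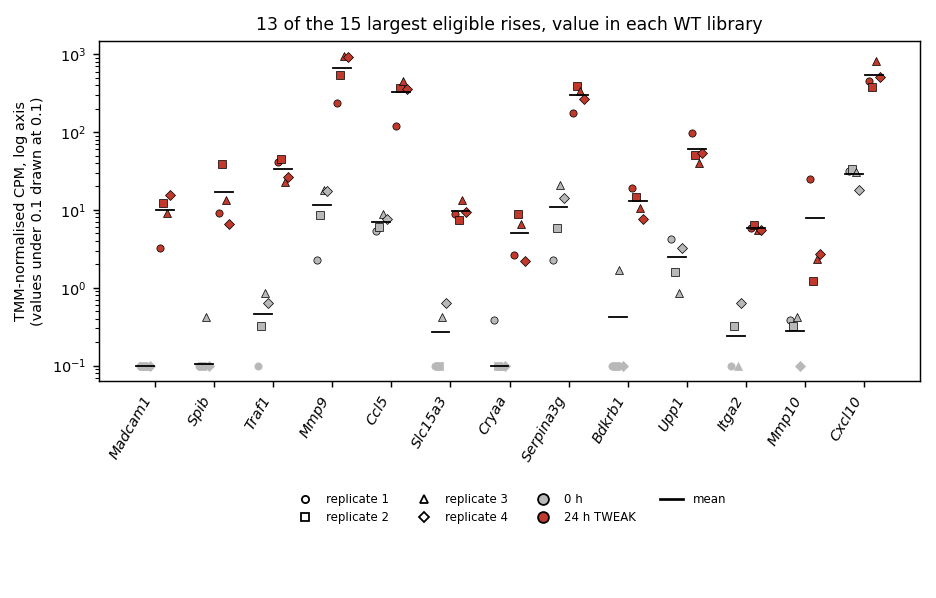
TMM-normalised CPM on a log axis of 13 of the 15 largest eligible rises in each WT library, with untreated libraries in grey, 24 h libraries in red, one symbol per replicate and a bar for each group's mean; values under 0.1 are drawn at 0.1. Eligible genes had no overlap of libraries by the rule of choice, so the treated libraries lie above the untreated ones in all 13. Madcam1 has no UMI in any untreated library.

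Of 22 genes of class I antigen presentation 9 rose and none fell, with a median of 0.78. With the block 14 of 22 rose. H2-K1, a classical class I heavy chain, was at 337, 273, 164 and 179 CPM untreated and 849.8, 942, 752 and 515 CPM at 24 h (1.68 ± 0.26, adjusted p = 0.000181). The peptide-loading chaperone Tapbp went from 179.7, 202, 157 and 186 to 624, 621, 503 and 382 CPM (1.56 ± 0.17). Psmb10 and Psmb8, catalytic subunits of the immunoproteasome, rose by 1.69 ± 0.2 and 1.52 ± 0.24, and in all 4 genes the groups did not overlap. H2-D1 rose by 1.05 ± 0.19 and H2-Q7 by 2.93 ± 0.55; class I genes are near-identical copies between which reads may be divided. The transporter gene Tap1 gave 0.44 ± 0.24 (adjusted p = 0.318; 0.0381 with the block). In the constitutive proteasome 1 of 27 genes rose, Psma6, and the median was 0.14. The call of Psma6 was lost without the untreated library of culture 1, 2 or 4, the 24 h library of culture 3 or all libraries of culture 1, 3 or 4 (adjusted p 0.0572 to 0.0952).

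Interferon-inducible GTPases rose in 6 of 10 cases, with none lower and a median of 0.98. Gbp2 went from 15.2, 37.3, 17 and 27 to 52.5, 62.7, 80.0 and 50.9 CPM (1.35 ± 0.3, adjusted p = 0.00641) and Gbp3 from 28.2, 45.4, 24.2 and 43.1 to 122, 108, 127 and 84.3 CPM (1.66 ± 0.35, adjusted p = 0.00432). The call of Gbp2 was lost without all libraries of culture 3 (adjusted p = 0.0964). That of Gbp3 was lost without all libraries of culture 3 (adjusted p = 0.0542). The count of 6 fell to 3 without the untreated library of culture 3 or 4, the 24 h library of culture 3 or all libraries of culture 1 or 4, and 1 without all libraries of culture 3. Gbp7, Igtp and Ifi47 each lost the call in 9 of the 12 settings. Guanylate-binding proteins also have close paralogs. Irf1 rose by 1.41 ± 0.21 and Irf5 by 1.43 ± 0.31, the 2 of 13 interferon-regulatory and STAT factors past the test (median 0.04; block 2 higher and 1 lower). Of 38 antiviral interferon-stimulated genes 3 rose and none fell, 36 had a positive log2 change and the median was 0.51. With the block 10 rose. The count was 1 without the untreated library of culture 3, the 24 h library of culture 1 or 3 or all libraries of culture 3. Parp14 had the smallest adjusted p of the list, going from 31.6, 22.5, 22.1 and 17.4 to 134, 86.6, 97.9 and 71.7 CPM (2.05 ± 0.25, adjusted p = 8.23e-06). Oasl2 (adjusted p = 0.0551; 0.00942 with the block), Zbp1 (0.0617; 0.0191) and Ifitm3 (0.12; 0.0325) passed with the block alone.

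Promoters of the genes that rose were searched for 2 motifs, because both routes of NF-kB end at the kB site and the interferon genes carry the interferon-stimulated response element (ISRE). RefSeq windows from 250 bases before to 50 after the gene start (GRCm38.p6) were matched by symbol for 8792 of the 11337 genes tested. The kB consensus, by name, was present on either strand for 54 of 320 matched genes that rose (16.9%), 15 of 276 that fell (5.43%) and 566 of all 8792 (6.44%). The ISRE core, a pair of GAAA repeats with any 2 bases between them, was searched on both strands and present for 20 of 320 (6.25%), 11 of 276 (3.99%) and 309 of 8792 (3.51%). These shares are descriptions with no test, and a match is not a binding site. A gene with several RefSeq starts was counted if any of its windows held a match. For such genes the window with the most upstream matches is printed, of 3 for Nfkb2 and 2 each for H2-K1 and Gbp3. The Nfkb2 window precedes a RefSeq start that lies inside the gene span given above. The windows below run from 20 bases before the first upstream match to 20 after the last, cut at the base before that RefSeq start. They are on the gene's strand with matches in capitals.
Nfkb2 (chr19:46304678-46304736, plus strand): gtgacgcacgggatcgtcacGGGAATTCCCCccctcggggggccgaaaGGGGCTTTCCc
Nfkbie (chr17:45555574-45555623, plus strand): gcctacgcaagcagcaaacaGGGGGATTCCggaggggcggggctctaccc
Nfkbia (chr12:55492648-55492696, minus strand): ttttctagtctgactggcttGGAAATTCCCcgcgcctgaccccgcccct
Tnip1 (chr11:54962967-54963018, minus strand): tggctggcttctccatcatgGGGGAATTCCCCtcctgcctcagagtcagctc
Traf3 (chr12:111166340-111166369, plus strand): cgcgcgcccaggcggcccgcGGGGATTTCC
Cxcl10 (chr5:92348963-92349122, minus strand): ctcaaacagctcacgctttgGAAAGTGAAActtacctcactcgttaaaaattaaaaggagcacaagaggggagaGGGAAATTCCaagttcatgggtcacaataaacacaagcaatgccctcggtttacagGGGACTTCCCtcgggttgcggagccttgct
Serpina3g (chr12:104236042-104236091, plus strand): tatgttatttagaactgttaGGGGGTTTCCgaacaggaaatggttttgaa
Madcam1 (chr10:79664456-79664518, plus strand): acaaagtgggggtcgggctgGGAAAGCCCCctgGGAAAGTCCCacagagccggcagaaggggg
H2-K1 (chr17:34000428-34000478, minus strand): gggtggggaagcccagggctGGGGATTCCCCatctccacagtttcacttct
Gbp2 (chr3:142620584-142620633, plus strand): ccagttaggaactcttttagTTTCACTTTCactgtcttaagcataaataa
Gbp3 (chr3:142559979-142560034, plus strand): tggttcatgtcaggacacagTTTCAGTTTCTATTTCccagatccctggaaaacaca
The first 5 belong to NF-kB subunits, inhibitors and adaptors, the next 4 to a chemokine, a serpin, an addressin and a class I chain, and the last pair to interferon-inducible GTPases. In Nfkb2, Tnip1, H2-K1 and Gbp3 some matches overlap each other. Madcam1 and Cxcl10 each hold 2 separate kB matches, and Cxcl10 holds an ISRE match upstream of them. Gbp2 and Gbp3 hold ISRE matches and no kB match in these windows. Only genes with a match are printed, so the windows are not typical of the rises. Named genes that fell also held matches, Ptx3 of kB and Cxcl14, Dhrs3 and Fbln5 of the ISRE core.

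The 15 largest falls included genes of enzymes, receptors and signalling ligands. Cyp4b1, a monooxygenase of fatty acids, was at 13.3, 8.69, 9.34 and 4.5 CPM untreated and 0, 0.615, 0.289 and 0.547 CPM at 24 h (-4.53 ± 0.6, adjusted p = 2.89e-05). Lgr5, a receptor of R-spondins, was at 133, 44.4, 22.9 and 12.9 CPM in untreated cultures 1 to 4 and was at 3.28, 2.77, 1.73 and 1.09 CPM after 24 h (-4.52 ± 0.66, adjusted p = 0.000103). The untreated level differed most between cultures 1 and 4, while the treated levels were all under 4 CPM. Lmcd1, a LIM protein of contractile cells, went from 34.3, 60.5, 65.4 and 50.8 to 0.656, 2.15, 4.91 and 7.11 CPM (-3.92 ± 0.41).

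Mgll, which hydrolyses monoacylglycerols, went from 109, 67.9, 63.3 and 59.2 to 13.8, 9.83, 16.2 and 14.8 CPM (-2.46 ± 0.28, adjusted p = 3.26e-06). Tbxa2r, the thromboxane receptor, went from 152, 128, 71.8 and 64.3 to 31.2, 16.9, 17 and 11.5 CPM (-2.43 ± 0.33). Neither gene's groups overlapped, which the choice of the largest falls required. Among the other large falls were Upk1b (-3.67 ± 0.84), whose call was lost without all libraries of culture 1 (adjusted p = 0.098), Rtl3 (-2.91 ± 0.42), Sv2c (-2.3 ± 0.49), Megf6 (-2.28 ± 0.37) and Kctd8 (-2.28 ± 0.63), which was lost without the untreated library of culture 3 or 4, the 24 h library of culture 1, 2 or 3 or all libraries of culture 2, 3 or 4 (adjusted p 0.0603 to 0.173).

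**Figure D3:**
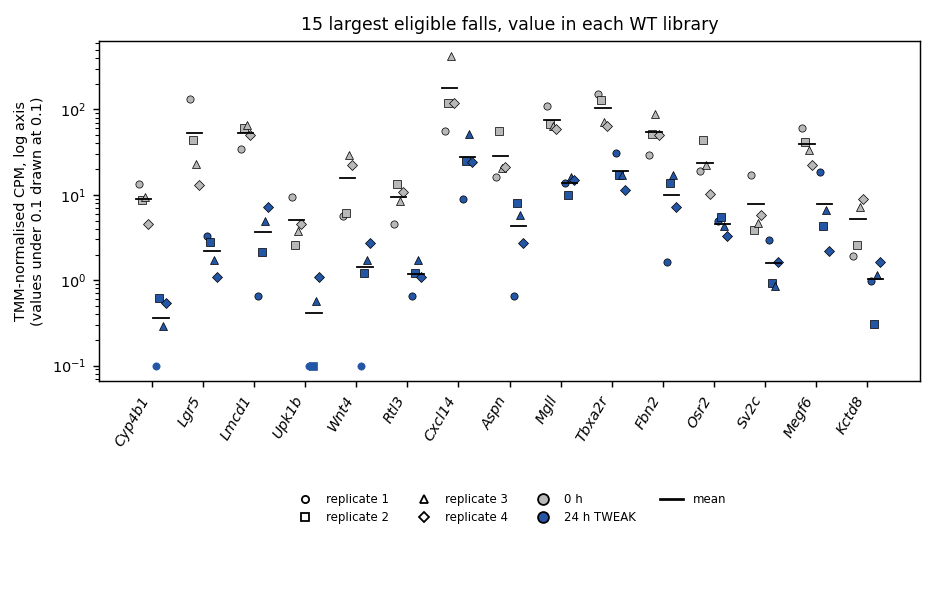
TMM-normalised CPM on a log axis of the 15 largest eligible falls in each WT library, with untreated libraries in grey, 24 h libraries in blue, one symbol per replicate and a bar for each group's mean; values under 0.1 are drawn at 0.1. Eligible genes had no overlap of libraries by the rule of choice, so the treated libraries lie under the untreated ones in all 15. Untreated Lgr5 and Cxcl14 are spread most widely between cultures.

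Wnt signalling genes had the lowest median of the lists with at least 9 members, -0.54, with 9 of 29 lower and 1 higher; with the block 15 fell and 1 rose. The count of falls was 5 without the untreated library of culture 4, and 4 without all libraries of culture 2 or 4. Wnt4, a ligand, went from 5.71, 6.11, 29.3 and 22.5 to 0, 1.23, 1.73 and 2.74 CPM (-3.5 ± 0.63, adjusted p = 0.00107). Wnt5a (-0.48 ± 0.13), the receptor gene Fzd1 (-0.7 ± 0.14), the R-spondin gene Rspo3 (-1.14 ± 0.34) and Nkd1, a feedback inhibitor (-1.42 ± 0.32), also fell. So did Sfrp2 (-2.35 ± 0.69), which binds Wnt ligands rather than carrying the signal, and Dkk3 (-0.74 ± 0.19). The rise was that of Lef1, a transcription factor at the end of the pathway, by 1.99 ± 0.49 (adjusted p = 0.0142). In 9 of the 12 settings that left out a library or a culture, Lef1 did not pass the expression filter and was not tested. No gene of this list was called higher in those 9. The call of Nkd1 was lost without all libraries of culture 1 (adjusted p = 0.0662). Wnt5a was no longer past the test without the untreated library of culture 3 or 4, the 24 h library of culture 2 or 3 or all libraries of culture 2, 3 or 4 (adjusted p 0.0523 to 0.137). For Rspo3 this was so without the untreated library of culture 3 or 4, the 24 h library of culture 1, 2 or 4 or all libraries of culture 2, 3 or 4 (adjusted p 0.0707 to 0.157), for Sfrp2 without the untreated library of culture 2, 3 or 4, the 24 h library of culture 1, 2 or 4 or all libraries of culture 2, 3 or 4 (adjusted p 0.0519 to 0.203), and for Dkk3 without the untreated library of culture 2, the 24 h library of culture 1 or all libraries of culture 2 or 4 (adjusted p 0.0632 to 0.113).

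Transcription factors of mesenchyme fell in 5 of 34 cases and rose in 1, Sox4; with the block 10 fell and 2 rose (median -0.13). Osr1, a zinc-finger factor of connective tissue progenitors, was at 117, 179.5, 269 and 203 CPM untreated and 43.3, 37.5, 49.4 and 48.2 CPM at 24 h (-2.11 ± 0.22, adjusted p = 1.15e-06). The untreated cultures differed by more than 2 times and the treated ones lay within 12 CPM of each other. Its paralog Osr2 fell (-2.4 ± 0.42) and Twist1 (-0.98 ± 0.16). The call of Sox4 was lost without the untreated library of culture 1 or 3, the 24 h library of culture 1 or 2 or all libraries of culture 1, 2 or 3 (adjusted p 0.0697 to 0.133). Hes1, the Notch target, went from 266, 246, 217 and 212 to 102, 91.9, 93.2 and 96.9 CPM (-1.29 ± 0.15, adjusted p = 4.83e-06), and its 4 treated values lay close together. Spry1, a feedback inhibitor of receptor tyrosine kinase signalling, fell from 158, 131, 158 and 169 to 29.5, 37.8, 39.8 and 44.3 CPM (-2.03 ± 0.14, adjusted p = 4.75e-09). In the list of ERK feedback and immediate-early genes that holds Spry1, 7 of 30 rose and 2 fell (median 0.17; block 7 and 5; leave-outs 1 to 3 falls), among the rises Jun (1.64 ± 0.2), Junb (1.01 ± 0.17), Fosl1 (1.31 ± 0.28) and Dusp10 (1.85 ± 0.34).

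The structural matrix fell more often than it rose. Of 46 collagens and structural proteins 10 fell and 1 rose (median -0.42); with the block 23 fell and 3 rose. The count of falls was 16 without all libraries of culture 1, and 6 without the untreated library of culture 2, the 24 h library of culture 1 or 3 or all libraries of culture 2 or 4, and 5 without the untreated library of culture 4 or all libraries of culture 3. Fbn2, encoding a microfibril protein, was at 29.3, 51.5, 88.7 and 50.2 CPM untreated and 1.64, 13.8, 17 and 7.11 CPM at 24 h (-2.42 ± 0.41, adjusted p = 0.000512). Nid2, a basement membrane linker, went from 35.4, 35.4, 38.6 and 32.8 to 12.5, 12.3, 12.7 and 10.9 CPM (-1.55 ± 0.17, adjusted p = 3.76e-06), and its values hardly differed between cultures at either time. Thbs1, encoding thrombospondin-1, fell from 2459.7, 2193, 2066 and 2463 to 1209.9, 894, 954 and 1006 CPM (-1.18 ± 0.31, adjusted p = 0.0206), a call lost without the 24 h library of culture 2 or 3 or all libraries of culture 3 (adjusted p 0.057 to 0.064).

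The largest fall in CPM was that of Sparc, a collagen-binding glycoprotein, from 8991, 10949, 10076 and 11029 to 5299, 8138, 7693 and 6929 CPM (-0.55 ± 0.14, adjusted p = 0.019). That call was lost without the untreated library of culture 2 or 4, the 24 h library of culture 1 or all libraries of culture 3 or 4 (adjusted p 0.052 to 0.104). Fibrillar collagens moved with less certainty. Col5a1 fell (-0.84 ± 0.23) and Col11a1 (-1.64 ± 0.41). Col1a1 (-0.78 ± 0.31, adjusted p = 0.147) and Col3a1 (-1.07 ± 0.51, adjusted p = 0.248) did not pass, but with the block both fell (adjusted p = 0.000585 and 1.79e-05). The 1 rise was Col18a1, a basement membrane collagen (0.66 ± 0.18). The call of Col5a1 was lost without the untreated library of culture 2, 3 or 4, the 24 h library of culture 1 or 2 or all libraries of culture 2, 3 or 4 (adjusted p 0.0554 to 0.134), that of Col11a1 without the untreated library of culture 4 or all libraries of culture 2 (adjusted p 0.0537 to 0.0783), and that of Col18a1 without the untreated library of culture 1, 3 or 4, the 24 h library of culture 2 or 3 or all libraries of culture 2, 3 or 4 (adjusted p 0.0572 to 0.16).

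Enzymes that mature collagen fell in 3 of 20 cases and rose in 1 (block 7 and 2). Lox, which crosslinks collagen and elastin, was at 943, 1077, 1106 and 1063 CPM untreated and 699, 665, 612 and 687 CPM at 24 h (-0.65 ± 0.12, adjusted p = 0.00161). Adamts2, the procollagen N-proteinase, fell (-1.02 ± 0.21) and Plod1 (-0.64 ± 0.17), while Adamts14, a paralog of Adamts2, rose by 1.38 ± 0.33. Among small proteoglycans of the same matrix, Aspn went from 16, 55.3, 20.4 and 21.2 to 0.656, 7.99, 5.77 and 2.74 CPM (-2.67 ± 0.52), and Podn (-2.17 ± 0.43) and Fmod (-1.03 ± 0.28) fell too. Dcn, encoding decorin, had means of 203 and 302 CPM, a positive change that passed with the block alone (0.57 ± 0.29, adjusted p = 0.293; 0.00429 with the block). Lum did not pass (-1.17 ± 0.57, adjusted p = 0.261). Over the list of proteoglycans and hyaluronan genes 6 of 23 fell and 2 rose (median -0.11), the rises being Gpc1 (0.93 ± 0.19) and the hyaluronidase gene Hyal2 (0.84 ± 0.13). The call of Plod1 was lost without the untreated library of culture 2, the 24 h library of culture 1 or all libraries of culture 2 or 4 (adjusted p 0.0564 to 0.148), that of Adamts14 without all libraries of culture 2 (adjusted p = 0.0726), and that of Fmod without the untreated library of culture 2, 3 or 4, the 24 h library of culture 1 or 4 or all libraries of culture 2, 3 or 4 (adjusted p 0.0507 to 0.111).

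Proteases and their inhibitors moved in both directions, with 3 of 25 higher and 4 lower (median -0.04). Mmp3 rose from 2.28, 5.47, 2.97 and 1.93 to 29.8, 21.2, 6.64 and 9.85 CPM (2.34 ± 0.42, adjusted p = 0.00105), beside Mmp9 and Mmp10. Timp3, the matrix-bound inhibitor of metalloproteinases, fell from 394, 871, 1152 and 1191 to 116, 252, 337 and 328 CPM (-1.8 ± 0.35, adjusted p = 0.0021). Its untreated level differed by 3 times between cultures, and each culture fell. Adamts1 fell (-2.16 ± 0.31), Adamts5 (-2.31 ± 0.64) and Mmp11 (-1.4 ± 0.3). The call of Adamts5 was lost without the untreated library of culture 1 or 2, the 24 h library of culture 1, 3 or 4 or all libraries of culture 1 or 2 (adjusted p 0.0507 to 0.142). Of 18 integrins 2 rose and 2 fell (block 2 and 5). Itga11, the chain that binds fibrillar collagen on fibroblasts, went from 434, 424, 398 and 365 to 156, 125, 187 and 143 CPM (-1.41 ± 0.13, adjusted p = 2.62e-07), and Itgav rose by 0.97 ± 0.23, a call lost without all libraries of culture 2 (adjusted p = 0.121).

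Contractile and myofibroblast genes gave different counts in the 2 fits. In the fit without the block 2 of 29 fell and 1 rose (median -0.30). With the block 10 fell and 2 rose. Leave-outs gave 1 to 5 falls. Acta2, smooth muscle actin and the hallmark of myofibroblasts, had means of 3808 ± 2201 and 2178 ± 1236 CPM (SD, n = 4), with a change of -0.81 ± 0.4 (adjusted p = 0.275; 0.000175 with the block). Cnn1 gave -1.62 ± 0.58 (adjusted p = 0.106; 7.79e-08 with the block) and Myl9 -1.32 ± 0.4 (adjusted p = 0.051; 1.24e-07 with the block). Untreated values of Cnn1 were 71.6, 105, 285 and 519 CPM and treated ones 28.2, 40.3, 86.3 and 167 CPM, so that the groups overlapped although each culture was lower at 24 h. Tagln2 rose by 1.03 ± 0.25, a call lost without the untreated library of culture 2 or all libraries of culture 3 (adjusted p 0.05 to 0.0623). The counts of the TGF-beta and BMP list also differed between the fits, with 2 of 31 lower and 1 higher (median -0.40) and, with the block, 9 lower and 3 higher. Leave-outs gave 1 to 3 falls. Smad6, an inhibitor of BMP signalling, fell (-1.11 ± 0.24) and Ltbp2 rose by 1.54 ± 0.4. The call of Ltbp2 was lost without the untreated library of culture 1, the 24 h library of culture 3 or 4 or all libraries of culture 2, 3 or 4 (adjusted p 0.0526 to 0.0847).

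**Figure D4:**
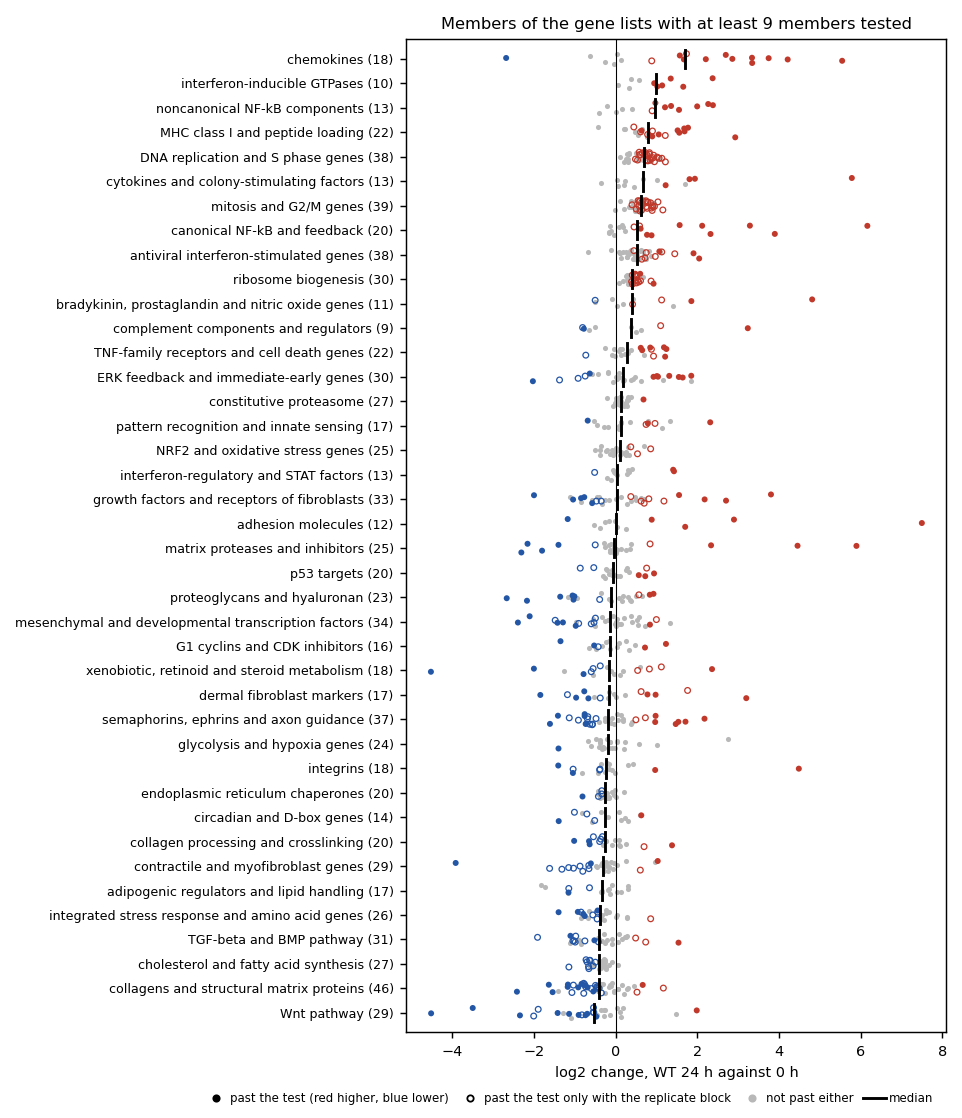
Each point is a tested member of a gene list, at its log2 change in WT cells at 24 h against untreated cells; lists are ordered by their median (black bar), with the number of members tested in brackets. Filled red and blue points passed the test higher or lower, open points passed only with the replicate block; of these lists, each with at least 9 members tested, chemokines have the highest median (1.70) and Wnt genes the lowest (-0.54).

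Cell cycle genes had mostly positive changes, in cultures that started from different levels. By edgeR's test none of 38 genes of DNA replication and S phase passed, and DESeq2 called 0; 19 had an unadjusted p under 0.05, all higher. All 38 had a positive change, with a median of 0.69, and 23 rose with the block. Of 39 genes of mitosis none passed by edgeR and 0 by DESeq2, with 1 at an unadjusted p under 0.05. Of these 38 were positive with a median of 0.63, and 25 rose with the block. Leave-outs gave 0 to 3 rises for S phase and 0 to 2 for mitosis. Summed over its list, S phase expression ranged from 760 to 1821 CPM in untreated libraries and from 1323 to 2661 CPM at 24 h, and mitotic expression from 657 to 2351 CPM and from 1161 to 3394 CPM. Medians by culture were 0.96, 0.89, 0.50 and 0.67 for S phase in cultures 1 to 4. Mcm6, a subunit of the replicative helicase, was at 38.8, 32.2, 111 and 106 CPM untreated and 77.7, 71.9, 173 and 182 CPM at 24 h (0.82 ± 0.34, adjusted p = 0.165; 0.00043 with the block). Mki67, the gene of the proliferation antigen Ki-67, gave 1.16 ± 0.52 (adjusted p = 0.219; 0.000612 with the block).

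Genes of G1 control split. Cdk6 rose from 30.1, 31.5, 53.1 and 52.7 to 93.1, 98.3, 94.1 and 103 CPM (1.23 ± 0.19, adjusted p = 0.000214) and Ccnd1, a D-type cyclin, by 0.72 ± 0.15. Cdkn1c, encoding the inhibitor p57, fell (-1.35 ± 0.3) and Ccnd2 (-0.53 ± 0.14), a call lost without the untreated library of culture 4, the 24 h library of culture 1 or all libraries of culture 2, 3 or 4 (adjusted p 0.0538 to 0.089). In the list of 16, 2 rose and 2 fell. Ribosome biogenesis genes were positive in 30 of 30 cases (median 0.41), with 2 past the test and 15 with the block. Leave-outs gave 1 to 6 rises in that list. Trp53, the gene of p53, rose by 0.94 ± 0.18, with 3 of the 20 genes of its list higher and none lower (block 4 and 2). The count of rises was 1 without the untreated library of culture 3, the 24 h library of culture 1 or 2 or all libraries of culture 3 or 4. The lists of the integrated stress response and of lipid synthesis had negative medians. Of 26 genes of the integrated stress response 5 fell and none rose (median -0.38; block 9 and 1), among them Trib3, from 201, 207, 163 and 185 to 44.6, 74.7, 90.1 and 77.7 CPM (-1.4 ± 0.17), Ddit3, encoding CHOP (-0.93 ± 0.14), and Chac1 (-0.8 ± 0.16). Of 27 genes of cholesterol and fatty acid synthesis none passed by edgeR and 0 by DESeq2, with 1 at an unadjusted p under 0.05 (lower). In this list 26 were negative with a median of -0.41, and 9 fell with the block.

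Growth factor and receptor genes changed in both directions. In a list of 33, 4 rose and 5 fell; with the block 9 rose and 7 fell (median 0.02). The rises were 2 without the untreated library of culture 2, and the falls 3 without the untreated library of culture 2, the 24 h library of culture 3 or all libraries of culture 1 or 2, and 2 without all libraries of culture 3. Vegfc, which drives lymphatic growth, went from 26.3, 21.6, 13.6 and 19.9 to 73.5, 106, 97 and 94.1 CPM (2.18 ± 0.19, adjusted p = 9.38e-08), while its relative Vegfd fell (-1.04 ± 0.23). Igf1 fell from 12.2, 19.6, 39.1 and 29.6 to 1.97, 6.15, 11.3 and 4.38 CPM (-2 ± 0.41, adjusted p = 0.00323), and Pdgfrb, the receptor that marks fibroblasts and pericytes, fell (-0.77 ± 0.19). The call of Vegfd was lost without all libraries of culture 3 (adjusted p = 0.0623), and that of Pdgfrb without all libraries of culture 1, 2 or 3 (adjusted p 0.0526 to 0.0838). Markers of dermal fibroblasts rose in 3 of 17 cases and fell in 4 (block 5 and 6). The rises were 5 without the untreated library of culture 3, and the falls 2 without all libraries of culture 2, and 1 without all libraries of culture 3. Cd34, which marks fibroblasts of the deep dermis and stem cells, was at 7.61, 21.9, 10.6 and 8.36 CPM untreated and 107, 210.2, 91.8 and 50.4 CPM at 24 h (3.2 ± 0.37, adjusted p = 4.83e-06). Ly6c1 fell (-1.85 ± 0.29). Thy1 (CD90) fell from 1771, 1371, 1869.8 and 1558 to 1209, 758, 1123 and 1044 CPM (-0.67 ± 0.16, adjusted p = 0.0093), a call lost without all libraries of culture 3 (adjusted p = 0.0601).

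The WT libraries at 6 h, 4 in number, show which of these changes were already present early. The library names of that time point say 3 h where the descriptions say 6 h. A test of 24 against 6 h called 439 genes (3.87%), a count that rested on replicates 3 and 4. It was 39 without replicate 3 and 54 without replicate 4 at every time, 134 and 162 without their 6 h libraries alone, and 175 and 246 without their 24 h libraries. With the block it was 1323. The comparisons at 6 and 24 h share the untreated libraries, so each is given by its own values. The test of 24 against 6 h shares the 24 h libraries, by whose change from untreated cells named genes were mainly chosen. For named genes this favours differences from 6 h in the direction of that change.

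Genes of the NF-kB pathway were already high at 6 h. Nfkb2 had means of 542 CPM at 6 h and 531 CPM at 24 h, a difference of -0.03 ± 0.13 (adjusted p = 0.947). Nfkbie was at 131 and 109.8 CPM (-0.26 ± 0.19, adjusted p = 0.497). Relb was lower at 24 than at 6 h (-0.54 ± 0.13, adjusted p = 0.0269), as was Tnfaip3 (-0.96 ± 0.25, adjusted p = 0.0296). So were Lif (-1.33 ± 0.33, adjusted p = 0.0284) and Ccl2 (-0.73 ± 0.18, adjusted p = 0.0296). Of the 12 settings that left out a library or a culture, 8 lost the call of Relb, 7 that of Tnfaip3, 6 that of Lif and 9 that of Ccl2.

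Other changes differed between 6 and 24 h. Among the 45 named genes past the test of 24 against 6 h, 9 stayed past it in all 12 settings that left out a library or a culture. Cd34 was at 20.2, 46.3, 23.7 and 20.1 CPM at 6 h and higher at 24 h by 2.02 ± 0.35 (adjusted p = 0.00459). At 6 h each culture was already above its untreated value (1.18 ± 0.39 against untreated cells, adjusted p = 0.0831). Robo1, a receptor of Slit ligands, was at 13, 14.8, 10.2 and 8.6 CPM at 6 h and higher at 24 h by 1.46 ± 0.2 (adjusted p = 0.000344), after 0.07 ± 0.21 at 6 h against untreated cells. Mgll was at 62.8, 27.7, 87.4 and 60.8 CPM at 6 h and lower at 24 h (-2.11 ± 0.28, adjusted p = 0.000344), after -0.35 ± 0.25 at 6 h against untreated cells. The others of the 9 fell as well. Against 6 h, Itga11 changed (-1.22 ± 0.13), Nid2 (-1.15 ± 0.18), Lox (-0.84 ± 0.12), Apod (-1.7 ± 0.27), Cyp4b1 (-4.26 ± 0.64) and Ptx3 (-1.22 ± 0.19). At 6 h against untreated cells these genes had given -0.19 ± 0.13, -0.39 ± 0.17, 0.19 ± 0.12, 0.52 ± 0.26, -0.26 ± 0.41 and 0.53 ± 0.19 in the same order, none past the test of 6 h against untreated cells by edgeR. At 24 h against untreated cells, the call of Apod was lost without all libraries of culture 2 (adjusted p = 0.104) and that of Ptx3 without the untreated library of culture 2, 3 or 4, the 24 h library of culture 1, 3 or 4 or all libraries of culture 3 or 4 (adjusted p 0.0536 to 0.201). Osr1, by contrast, was already at 27.7 CPM at 6 h and at 44.6 CPM at 24 h (0.65 ± 0.24, adjusted p = 0.134).

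**Figure D5:**
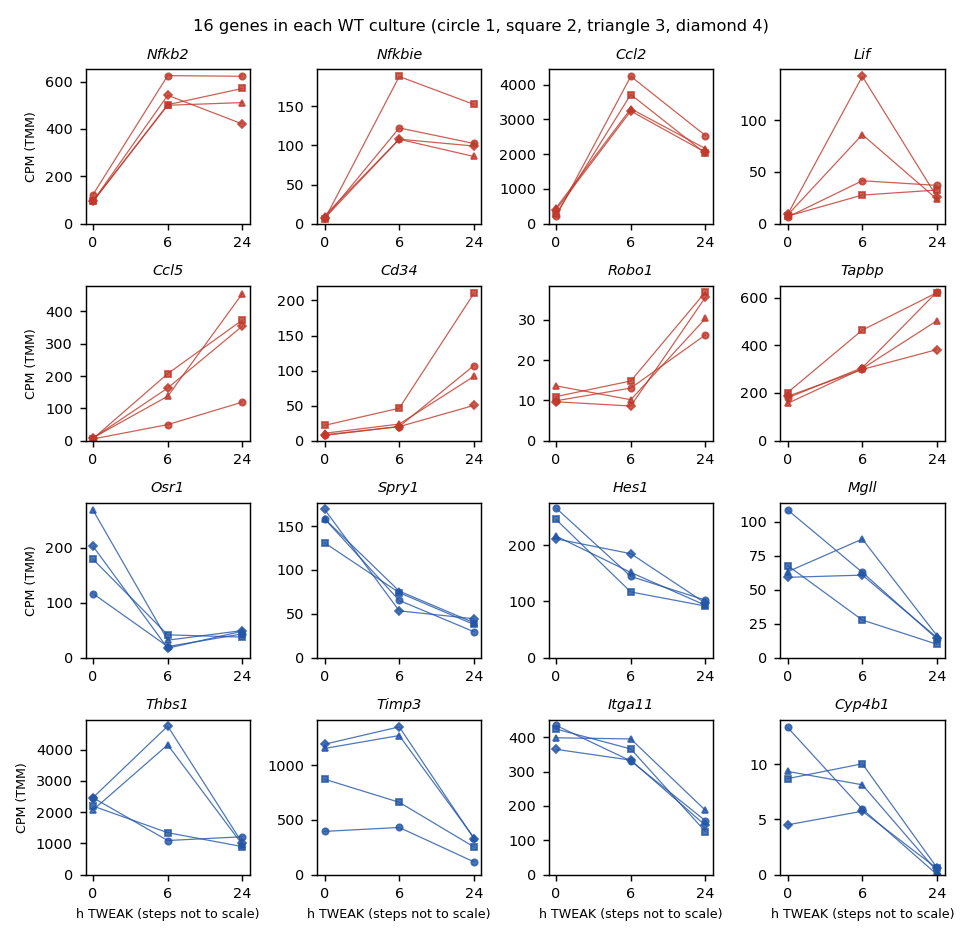
CPM of 16 genes in the 4 WT cultures at 0, 6 and 24 h of TWEAK, each line a culture; the time steps are not to scale and each panel has its own axis from 0. Nfkb2 and Nfkbie are high at both times, Robo1 rises after 6 h and Cd34 both before and after, and Itga11 and Cyp4b1 fall mainly after 6 h, as Mgll does except in culture 2; Thbs1 and Lif differ between cultures 1 and 2 and cultures 3 and 4 at 6 h.

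The KO cells, 2 libraries a time, served to ask whether the 24 h changes differ without NIK. Map3k14 was at 0.431 and 0 CPM in untreated and 0.603 and 0.5 CPM in treated KO libraries. The response of KO cells minus that of WT cells passed the test for 30 genes (0.265%), 17 of them among the named genes. Named genes were mainly chosen by the WT change that is subtracted here, which favours differences of the opposite sign. The count was 7 to 13 without any 1 of the 4 KO libraries, 19 without the 24 h WT library of replicate 2 and 56 without WT replicate 1. Only Nfkb2 and Spry1, of the 17, stayed past the test in every one of 16 settings that left out a library or a culture. Nfkb2 was at 112 and 86.1 CPM untreated and 156 and 127 CPM treated in KO cells, a response that was smaller than in WT (-1.87 ± 0.24, adjusted p = 0.000806). Spry1 was at 187 and 186 CPM untreated and 132 and 155 CPM treated in KO cells (1.65 ± 0.24, adjusted p = 0.00148). Differences that did not pass at 2 libraries a time do not show that the responses were alike.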

How the data were processed

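Bulk MARS-seq counts of 24 libraries of mouse dermal fibroblasts were used, of which the 8 WT libraries at 0 and 24 h are compared here. Per the labels' protocols, libraries were made from total RNA extracted with either of 2 kits. Which kit served which sample is not stated. Alignment to GRCm38 and counting used STAR 2.7.10a and HTSeq after cutadapt, with DESeq2 also named, per the submitters' processing notes. The deposited counts are whole UMI numbers per gene, not normalised, and every gene in the table reaches a count of 6 in some library. For WT at 24 against 0 h, log2 fold changes and p-values of the authors' own test were read from their deposited table. The table's 48 per-sample columns of transformed values were not used.

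With edgeR 4.0.16 (R 4.3.3), filterByExpr kept 11337 of 13479 genes (2142 not tested). After TMM scaling, all 24 libraries in 9 groups were fitted with glmQLFit, so that they share 1 estimate of the spread, and contrasts were tested with glmQLFTest. An SE is the size of a log2 change divided by the square root of F. The authors' own model is not given in the sources used here, so the replicate number entered as a block only in an alternative. Same-numbered WT libraries at 0 and 24 h deviated together from their group means (correlation across 7289 genes 0.520 to 0.688, each highest with its own number; 0.534 and 0.107 within each pair of cultures), and the numbers were taken to pair the samples. Alternatives were DESeq2 1.42.0, limma-voom (limma 3.58.1), other scalings and filters, glmTreat, the cultures of replicates 1 and 2 and of 3 and 4 as groups of their own, and leaving out each library or culture. The scripts were tested on simulated data.

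The comparison, the 47 gene lists and the rule for named genes were chosen with earlier results of these data known. Named were Map3k14, Nfkb2, Relb and Tnfrsf12a, the 15 highest and 15 lowest log2 changes of genes that passed in both fits, reached 5 CPM in the higher group and had no overlap of libraries, the 5 greatest changes in CPM each way, and, from each list, up to 4 genes that passed, taken by adjusted p, 140 genes in all. Other list members and fibroblast markers are named in the text by their role. Gene positions are those of GENCODE vM21, and promoter sequences those of RefSeq for GRCm38.p6. The genes whose windows are printed were chosen after their values were seen. No 2 libraries of the same group agreed within sampling noise (lowest chi-square per degree of freedom 3.02). Libraries of different groups were not compared in this way. A few of the named genes are not reported here.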

Additional observations from a re-analysis of the deposited data

Results flagged for a closer look

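In groups of 4 libraries, the gap between the highest or lowest value and the nearest other as a share of the group's range was above Dixon's 95% critical value in 15 of 276 groups examined. Chance flags about 1 in 20 groups, which is 13.8 here. Replicate 1 stood apart most often. Its untreated library was highest for Nfkb2 (0.968), Cryaa (1), Sv2c (0.855) and Ptges (0.849). Its 24 h library was highest for Tnfrsf12a (0.879), Mmp10 (0.936) and Ptges (0.921) and lowest for Plod1 (0.904) and Ccnd2 (0.834). Replicate 2 was highest for Relb at 24 h (0.852) and for untreated Aspn (0.867). In replicate 3 the untreated library was the only one with a UMI of Spib (1) or Bdkrb1 (1), and the 24 h library was lowest for Csf2 (0.926). Untreated Cxcl10 was lowest in replicate 4 (0.858). Cryaa rests on 1 untreated UMI, so its gap is the gap of a single count.

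The response to 24 h of TWEAK differed between KO and WT cells, by edgeR's interaction contrast at an adjusted p under 0.05, for 17 named genes. Named genes were mainly chosen by their WT change at 24 h, which this difference subtracts. The choice therefore favours a difference of the opposite sign to the WT change. Among genes that rose in WT cells, the KO response minus the WT response on the log2 scale was -1.87 for Nfkb2, -2.24 for Cxcl16, -2.72 for Nfkbie, -1.30 for Tnip1, -1.87 for Vegfc, -2.43 for Icam1, -5.16 for Ccl5, -1.62 for Birc3, -1.98 for Nfkbia and -1.69 for Robo1. Among genes that fell, the same difference was 1.65 for Spry1, 3.43 for Lmcd1, 1.63 for Nid2, 1.78 for Osr1, 2.18 for Mgll, 3.03 for Rtl3 and 1.08 for Itga11. With 2 KO libraries a time, 15 of the 17 calls were lost in at least 1 setting that left out a library or a culture, Nfkb2 and Spry1 being the exceptions.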

How the results depend on the processing

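Without a replicate block 417 genes rose and 362 fell at 24 h; with the replicate block 909 rose and 861 fell, and with the cultures of replicates 1 and 2 and of 3 and 4 as separate groups 949 and 811. On the WT libraries at 0 and 24 h only, 228 and 183 were called, and 1100 and 1064 on those libraries with the replicate block. Requiring more than 0.5 on the log2 scale (glmTreat) left 156 and 93. Within replicates 3 and 4, 227 fell. Leaving out a library or a culture gave 262 to 379 rises and 215 to 367 falls. DESeq2, limma-voom, other scalings and other filters kept both counts within 1.5 times. For 24 against 6 h (439 genes), limma-voom called 282, the block 1323 and separate groups 1213, and leaving out a library or a culture gave 39 to 631. For the KO response minus the WT response (30 genes), DESeq2 called 63, the block 160 and separate groups 113, and leave-outs gave 7 to 56. The cause of these differences was not tested.

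No named gene changed direction under any alternative. Of the 139 named genes past the test, 100 stayed past it in all 12 leave-outs, and Cryaa in the 8 that could fit it. Of 61 other list members past it, 42 lost the call in at least 1. A setting whose filter dropped a member, as with Lef1, was not counted as a loss. The block took none of these genes below the threshold, and in the fit of all libraries it changed no call of a named gene. On the WT libraries at 0 and 24 h alone with the block, Tnfrsf12a passed (0.43, adjusted p = 0.0224). RLE scaling moved the median of all genes to -0.007 and total counts alone to 0.037. Depth limits the low genes: 3 UMIs correspond to 0.88 to 1.90 CPM in a library.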

Other observations

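The counts of further lists stand against 3.68% of all genes higher and 3.19% lower, or 8.02% and 7.59% with the block, and a single member in a list is close to these shares. Of 37 genes for semaphorins, ephrins and axon guidance 6 rose and 6 fell (block 8 and 14). The rises were 3 without the untreated library of culture 1 or all libraries of culture 4. Nrp2, a coreceptor of semaphorins and VEGF-C, was at 91.7, 61.8, 127 and 119 CPM untreated and 349.6, 275, 259 and 219 CPM at 24 h (1.47 ± 0.18, adjusted p = 7.93e-06), and Robo1 and Robo2 rose by 1.53 ± 0.19 and 1.71 ± 0.4. Their ligand gene Slit3 fell from 394, 374, 393 and 300.4 to 241, 216, 218 and 187 CPM (-0.76 ± 0.12, adjusted p = 0.000218). Ephb3, a receptor of ephrins, fell (-1.61 ± 0.18), with treated values of 30.8, 34.1, 25.1 and 33.9 CPM against 99, 104, 84.9 and 89.4 CPM. In the list of bradykinin, prostaglandin and nitric oxide genes 2 of 11 rose (block 4 higher and 1 lower), Bdkrb1 and the prostaglandin E synthase gene Ptges, which went from 40.3, 31.2, 29.7 and 29.6 to 227, 87.6, 83.4 and 75.5 CPM (1.85 ± 0.28) with culture 1 well above the others at 24 h.

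Of 22 TNF-family receptor and cell death genes 6 rose (block 8 higher and 1 lower; 3 without all libraries of culture 3), among them Casp8 (1.24 ± 0.18), Tnfrsf1b, encoding TNF receptor 2 (1.18 ± 0.21), and Mlkl, the effector of necroptosis (0.85 ± 0.16). Of 18 genes of xenobiotic, retinoid and steroid metabolism 1 rose and 3 fell (block 4 and 6), including Crabp2, a carrier of retinoic acid, from 10.7, 21.6, 11.9 and 16.7 to 2.62, 3.99, 4.91 and 3.28 CPM (-2 ± 0.28, adjusted p = 5.73e-05). Per1, a clock gene, fell (-1.4 ± 0.24), in a list of 14 with 1 higher and 1 lower (block 1 and 4). Adm, encoding adrenomedullin, fell (-1.41 ± 0.24) as the 1 of 24 glycolysis and hypoxia genes past the test. Of 17 adipogenic genes Apod fell (-1.18 ± 0.27; block 3 lower). Of 20 chaperones of the endoplasmic reticulum Selenos fell (-0.83 ± 0.17; block 4 lower). Among 25 NRF2 and oxidative stress genes none passed by edgeR and 0 by DESeq2, with 2 higher and 1 lower at an unadjusted p under 0.05 (block 3 higher). Among 9 complement genes 1 rose and 1 fell (block 2 and 2), and among 17 genes of pattern recognition 2 rose and 1 fell (block 4 and 1). Leaving out a library or a culture gave 0 to 3 rises of pattern recognition genes, 0 to 3 rises in the metabolism list, 0 to 3 falls of adipogenic genes and 0 to 1 rises of NRF2 genes. No mitochondrially encoded gene of 6 passed by edgeR or reached an unadjusted p under 0.05, and DESeq2 called 0.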
